A study of Mus musculus with 4 samples.

Results

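The fibrillar collagen genes Col1a1, Col1a2, Col2a1, Col3a1, Col5a1, Col5a2, Col5a3, Col11a1, Col24a1 and Col27a1 were compared between lung endothelial cells (ECs) isolated after unilateral pneumonectomy (PNX) and ECs of sham-operated mice. These 10 genes were taken by symbol from the 24063 symbols in the deposited tables, with the counts of whichever transcript had most of them over the libraries. Of the 10 genes, 9 were among the 16208 genes that passed the filter on low counts, and Col2a1 was not. Col11a2, a further fibrillar collagen gene that was not among the 10, is given with the other collagens. Post-PNX ECs came from the remaining lung 7 days after the left lung had been removed, and sham ECs came from mice whose chest had been opened without removal of lung tissue. The labels give no day after surgery for the sham libraries. All mice were C57BL6J (strain C57BL6 in the labels), 8 weeks old and labelled male, no mutant allele is given for either group, and the ECs were selected from collagenase-digested lung with magnetic beads through an antibody to CD31. According to its methods, the study checked the isolated ECs by FACS for the surface proteins CD31 and VE-Cadherin and for lack of the leukocyte protein CD45. Both groups had 2 libraries pooled from 2 mice each, so that differences between single mice cannot be seen and the p-values measure the spread between pools.

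Fibrillar collagens are rod-like molecules of intertwined chains that are secreted as procollagens, trimmed at their ends and assembled side by side into the fibrils that give connective tissue its tensile strength. Types I and III make up most of the fibril mass in lung interstitium and vessel walls, type V starts fibrils and limits their width, types II and XI form the fibrils of cartilage, and types XXIV and XXVII are a separate branch of the family whose helix is interrupted. In the lung they are known mainly as products of fibroblasts and other mesenchymal cells, whereas ECs are known for the network-forming type IV collagen of the basement membrane.

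The counts summed over 1 transcript per symbol lay between 41367438 and 50952879 per library, at which 3 counts, taken as the smallest level shown, correspond to between 0.0589 and 0.0725 CPM (counts scaled to the library total). The libraries of a group differed by more than counting noise, with a mean chi-square per gene of 1.76 between the sham and 1.52 between the post-PNX libraries. The libraries went against their labels in 1 respect, since all 44 chromosome Y symbols had 0 counts in all 4 libraries and Xist had between 31873 and 33793 normalized counts, while the mice were labelled male. Since this held for both groups alike, no library could be set aside for it. Each of 12 endothelial markers had at least 6158 normalized counts in every library, so the labelled cell type was present by its markers, but markers of alveolar epithelium, leukocytes and mesenchymal cells were detected in every library as well.

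Reads of fibrillar collagen genes were more frequent in post-PNX ECs. Of the sham counts 0.111% ± 0.00125 (SD, n = 2) fell on the 10 genes, and of the post-PNX counts 0.491% ± 0.00250 (SD, n = 2). With a log2 fold change above 1 and an adjusted p under 0.01 as the criteria for a rise (quasi-likelihood test of edgeR, Benjamini-Hochberg adjusted over all genes tested), 8 of the 10 genes rose, where 5.9% of all genes tested did. The 8 include Col11a1 and Col24a1, which reached the minimum of the filter in both libraries of a group only after PNX, so that the filter favoured a rise in them, and of the other 8 members 6 rose. Col27a1 passed the threshold on adjusted p but not the one on fold change, and Col2a1 did not pass the filter on low counts and was not tested in this fit. No member was lower past the thresholds, and 1.66% of all genes tested were. In 9 of the 10 genes both post-PNX libraries lay above both sham libraries, which was the case in 40.8% of all genes tested, and in no member did both lie below, as they did in 40.5% of all genes tested. In RNA from a bulk cell fraction, more collagen-producing cells in the fraction and more collagen RNA per cell cannot be told apart.

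Over the 9 members tested the log2 fold changes had a median of 2.27, against 0.00115 over all genes tested. This median is a description, since Col11a1 and Col24a1 entered the test through their post-PNX counts. The 9 log2 fold changes covered a wide range, from 0.30 in Col27a1 to 5.54 in Col24a1.

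**Figure D1:**
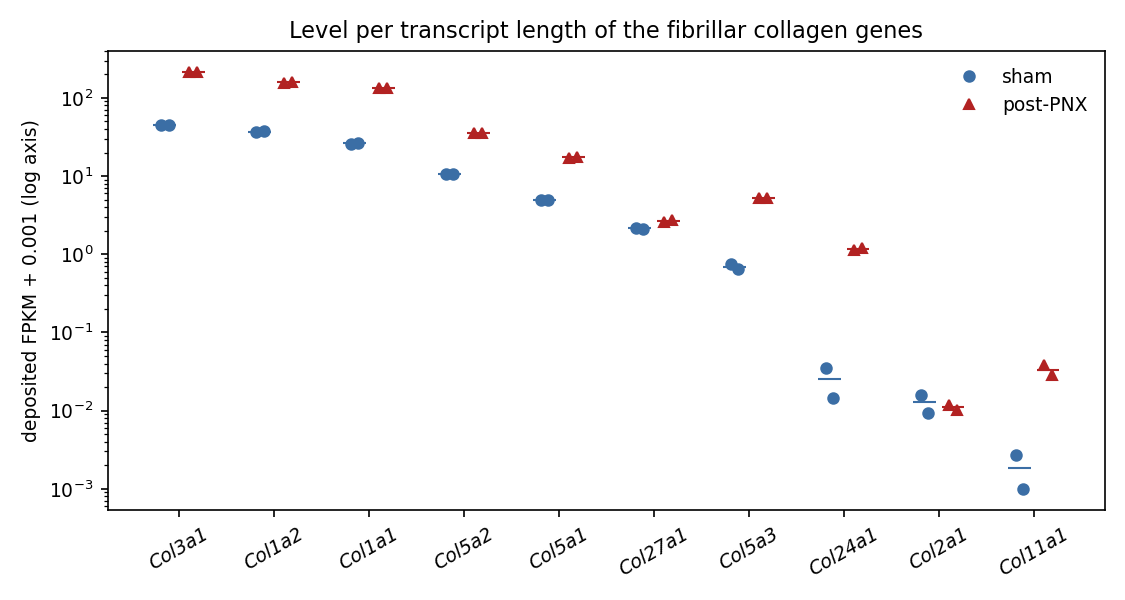
Deposited FPKM (a level scaled to transcript length and library total, with 0.001 added so that a value of 0 can be drawn on the log axis) of the 10 fibrillar collagen genes, with 1 point per library and a line at the mean of each group of 2 libraries. Col3a1, Col1a2 and Col1a1 had the highest levels in both groups, the groups overlapped in Col2a1, and Col24a1 went from 0.0345 and 0.0136 in sham to 1.15 and 1.19 in post-PNX ECs.

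Levels can be compared between genes only per transcript length, for which the deposited FPKM was used. In sham ECs the order of mean FPKM ± SD (n = 2) from high to low was Col3a1 (44.5 ± 0.117), Col1a2 (37.1 ± 1.09), Col1a1 (26.3 ± 0.363), Col5a2 (10.5 ± 0.0763), Col5a1 (4.98 ± 0.0338), Col27a1 (2.16 ± 0.0452) and Col5a3 (0.693 ± 0.0661). The remaining genes were far lower in sham ECs, with 0.0345 and 0.0136 FPKM for Col24a1, 0.0150 and 0.00843 for Col2a1 and 0.00169 and 0 for Col11a1. Among neighbours in this order, Col24a1 and Col2a1 overlapped between libraries, and no other pair of neighbours did.

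In post-PNX ECs the first 5 genes kept their order, from Col3a1 at 217 ± 0.314 FPKM through Col1a2 at 158 ± 1.06, Col1a1 at 134 ± 0.759 and Col5a2 at 35.6 ± 0.127 to Col5a1 at 17.5 ± 0.435. Col5a3, with 5.23 ± 0.0692 FPKM, stood above Col27a1, with 2.67 ± 0.127, so that these genes had changed places. Col24a1 followed with 1.17 ± 0.0280, and Col11a1 (0.0370 and 0.0272) stood above Col2a1 (0.0109 and 0.00926). No neighbours in the post-PNX order overlapped between libraries, although the last of them rest on few counts.

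As shares of the summed FPKM of the 10 genes, Col3a1 went from 35.2% ± 0.340 (SD, n = 2) to 38.0% ± 0.130 (SD, n = 2), Col1a1 from 20.8% ± 0.0309 (SD, n = 2) to 23.4% ± 0.0190 (SD, n = 2) and Col1a2 from 29.3% ± 0.506 (SD, n = 2) to 27.7% ± 0.0518 (SD, n = 2). The shares of Col5a2 (8.35% in sham and 6.25% in post-PNX ECs), Col5a1 (3.94% and 3.06%) and Col27a1 (1.71% and 0.469%) were lower after PNX, and those of Col5a3 (0.549% and 0.917%) and Col24a1 (0.0191% and 0.205%) were higher. In each of these 8 genes the group means differed by more than the SD between libraries, so the mixture as well as the amount of fibrillar collagen RNA differed. Shares within a sum depend on each other, and they were not tested.

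The genes lie on 8 chromosomes of the mouse genome build GRCm38 (mm10). RefSeq places Col3a1 at chr1:45311538-45349706 on the plus strand and Col5a2 at chr1:45374331-45503282 on the minus strand, so that their 3′ ends face each other across a gap of 24624 bp. Bases upstream of an annotated start were read from RefSeq (GRCm38.p6) windows, which were found for 7 of the 10 genes and not for Col1a1, Col2a1 and Col5a2. The windows of Col1a2 and Col27a1 held no base upstream of all annotated starts of the gene. Both were kept in the motif counts over the 7 genes. In the 250 bases before the start, 6 short motifs were searched on both strands: the CCAAT box (CCAAT), the TATA box (TATAAA), the GC box (GGGCGG), the TEAD motif (CATTCC), the AP-1 motif (TGANTCA) and the SMAD box (CAGACA). Stretches of 4 genes are printed because they stand for the range of the rises described below, with Col3a1 as the gene with the highest level, Col5a1 and Col5a3 as chains of the same collagen with unequal rises, and Col24a1 as the gene with the largest rise that did not start at the floor. Each runs 5′ to 3′ and ends before the first start annotated for the gene, and capitals mark matches to the motifs. The printed stretches of Col5a1 (206 bases) and Col5a3 (200 bases) are therefore shorter than the windows searched, and those of Col3a1 and Col24a1 hold the whole window. The stretch of Col3a1 is chr1:45311288-45311537 on the plus strand, that of Col5a1 is chr2:27886175-27886380 on the plus strand, that of Col5a3 is chr9:20815118-20815317 on the minus strand, and that of Col24a1 is chr3:145292222-145292471 on the plus strand.
Col3a1: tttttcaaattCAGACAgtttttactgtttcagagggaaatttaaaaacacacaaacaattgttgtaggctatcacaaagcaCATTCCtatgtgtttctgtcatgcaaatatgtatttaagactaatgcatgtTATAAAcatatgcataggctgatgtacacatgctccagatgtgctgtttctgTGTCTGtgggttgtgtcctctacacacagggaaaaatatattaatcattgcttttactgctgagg
Col5a1: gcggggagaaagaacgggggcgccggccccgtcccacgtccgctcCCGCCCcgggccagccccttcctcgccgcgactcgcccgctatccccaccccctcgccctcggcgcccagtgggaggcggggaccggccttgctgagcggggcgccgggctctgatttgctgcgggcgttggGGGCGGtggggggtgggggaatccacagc
Col5a3: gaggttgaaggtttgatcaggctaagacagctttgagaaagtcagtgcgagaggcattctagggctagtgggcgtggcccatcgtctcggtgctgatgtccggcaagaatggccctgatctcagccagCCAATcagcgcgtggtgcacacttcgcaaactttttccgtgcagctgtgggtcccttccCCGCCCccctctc
Col24a1: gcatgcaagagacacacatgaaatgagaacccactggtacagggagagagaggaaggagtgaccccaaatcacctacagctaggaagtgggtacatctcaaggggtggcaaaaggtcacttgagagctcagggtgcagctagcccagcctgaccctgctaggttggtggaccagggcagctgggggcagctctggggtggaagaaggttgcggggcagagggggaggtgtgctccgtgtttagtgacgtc

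These upstream stretches differed in composition and in the motifs they held. GC made up 35.2% of the 250 bases of Col3a1, 76.4% in Col5a1, 62.8% in Col5a3 and 58% in Col24a1. The window of Col3a1 held TATAAA 117 bp, CATTCC 168 bp and CAGACA 239 and 65 bp before the start, and no CCAAT or GGGCGG. In the window of Col24a1 none of the 6 motifs was found. Over the 7 genes, GGGCGG was found in 5 windows (32.7% of 32851 windows of all genes held it), CCAAT in 3 (33.9%), CAGACA in 3 (17.1%), TATAAA in 1 (12.4%), CATTCC in 1 (12.6%) and TGANTCA in none (6.75%). No motif was found in all 7 windows. A match is a description of letters, and its absence says only that these letters are not in this window.

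Col1a1 and Col1a2 encode the chains of type I collagen, the main collagen of interstitial fibrils, which assemble together into 1 molecule. Col1a1 (chr11:94936224-94953042, 51 exons) had 9013 and 9186 normalized counts in sham and 45691 and 46175 in post-PNX ECs. The libraries of a group lay close together and the groups did not overlap. Col1a1 rose 5.05-fold (log2 fold change 2.34 with a standard error of 0.019, edgeR adjusted p = 3.1e-68), which placed it at rank 295 of the 16208 genes ordered by log2 fold change. Col1a2 (chr6:4505618-4541543, 52 exons) had 13747 and 14326 normalized counts in sham and 58987 and 59702 in post-PNX ECs. It rose 4.23-fold (log2 fold change 2.08 with a standard error of 0.019, edgeR adjusted p = 5.5e-66), also without overlap.

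The balance of the type I chains was examined per length. The ratio of Col1a1 to Col1a2 was 0.718 and 0.702 in sham ECs, against 0.848 and 0.847 in post-PNX ECs. This is a log2 difference of 0.26, with a pooled SD of 0.0161 between libraries of a group, and both post-PNX ratios lay above both sham ratios. With 2 libraries against 2, an exact two-sided permutation test cannot give a p below 0.333, the value found here and for each ratio below, so the ratios are given as descriptions. Col1a2 RNA remained the more abundant per length in all 4 libraries.

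Col3a1 encodes type III collagen, a molecule of identical chains that forms fibrils together with type I in distensible tissues such as lung and blood vessels. Col3a1 (chr1:45311538-45349706, 51 exons) had 18204 and 18263 normalized counts in sham and 88044 and 88447 in post-PNX ECs, the highest values among the 10 genes. The groups did not overlap, and the 4.84-fold rise had a log2 fold change of 2.27 with a standard error of 0.017 (edgeR adjusted p = 2.8e-70). The ratio of Col3a1 to Col1a1 per length was 1.71 and 1.68 in sham and 1.63 and 1.62 in post-PNX ECs, a log2 difference of -0.06 with a pooled SD of 0.0122. Both post-PNX ratios were below both sham ratios, by a difference much smaller than the rise of either gene.

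**Figure D2:**
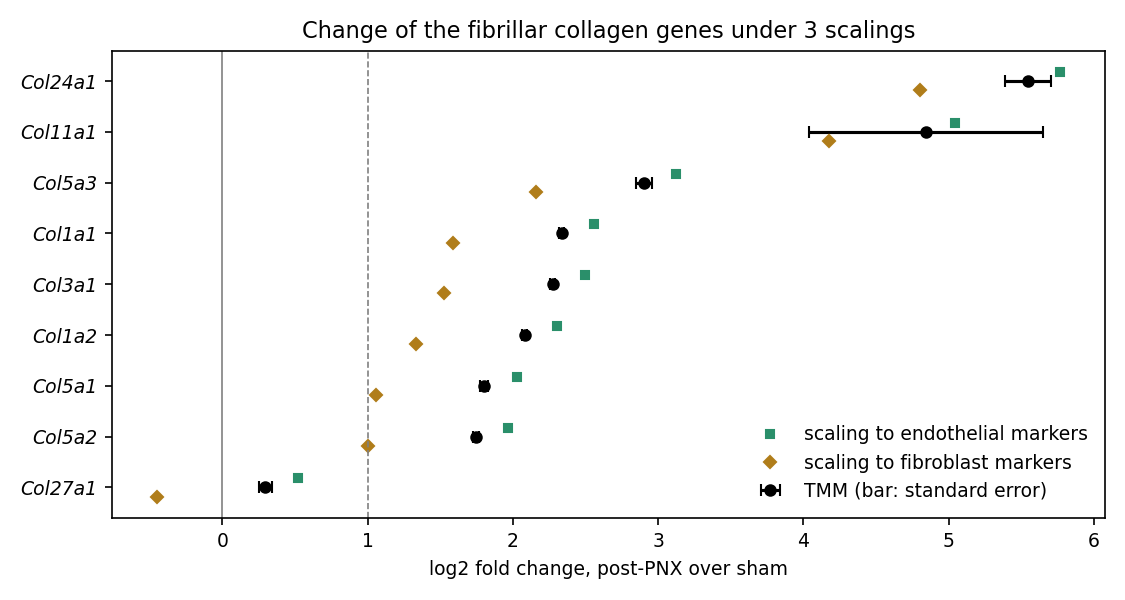
Log2 fold change of post-PNX over sham ECs for the 9 fibrillar collagen genes tested, by the TMM scaling of edgeR (black, with the standard error as bar), by scaling to 12 endothelial markers (green squares) and by scaling to 10 fibroblast markers (brown diamonds, a scaling chosen after the data were seen). The dashed line marks the threshold of 1, and 8 genes lay beyond it under each scaling, while Col27a1 stood at 0.30, 0.52 and -0.45.

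Type V collagen, which is built from the products of Col5a1, Col5a2 and Col5a3, sits inside type I fibrils, where it starts their assembly and limits their diameter. Col5a1 (chr2:27886381-28039510, 66 exons) had 3064 and 3092 normalized counts in sham and 10544 and 10949.6 in post-PNX ECs. Col5a2 (chr1:45374331-45503282, 54 exons) had 5111 and 5161 in sham and 17183 and 17313 in post-PNX ECs. Neither gene overlapped between the groups. Col5a1 rose 3.49-fold (log2 fold change 1.80 with a standard error of 0.026, edgeR adjusted p = 3.9e-55) and Col5a2 rose 3.36-fold (log2 fold change 1.75 with a standard error of 0.022, edgeR adjusted p = 3.7e-58), less than the type I and III genes in fitted size. Their ratio, Col5a2 to Col5a1 per length, was 2.12 in both sham libraries, against 2.07 and 2.01 after PNX, a log2 difference of -0.06 with a pooled SD of 0.0218.

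Col5a3 encodes the least widespread chain of type V collagen. Col5a3 (chr9:20770050-20815117, 67 exons) showed 332 and 289.5 normalized counts in sham ECs, against 2348 and 2309.8 after PNX. It rose 7.47-fold without overlap (log2 fold change 2.90 with a standard error of 0.055, edgeR adjusted p = 1.4e-48), more in fitted size than Col5a1 and Col5a2. The ratio of Col5a3 to Col5a1 per length, chosen after the values were seen, was 0.149 and 0.129 in sham and 0.307 and 0.291 in post-PNX ECs, a log2 difference of 1.11 with a pooled SD of 0.111. Col5a3 nevertheless remained the lowest of the type V genes per length in all 4 libraries.

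**Figure D3:**
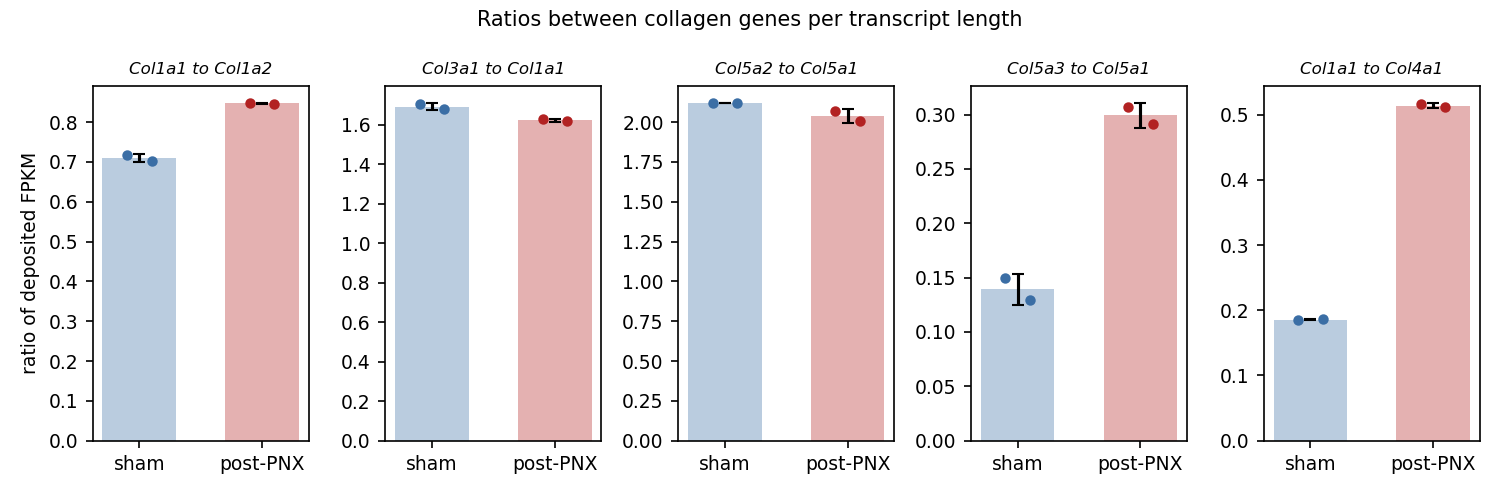
Ratios of deposited FPKM between pairs of collagen genes in sham and post-PNX ECs, with 1 point per library, bars at the mean and error bars of 1 SD (n = 2). Col1a1 to Col1a2, Col5a3 to Col5a1 and Col1a1 to Col4a1 were higher after PNX in both libraries, and Col3a1 to Col1a1 and Col5a2 to Col5a1 were slightly lower.

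Col11a1 encodes a chain of type XI collagen, the counterpart of type V in cartilage. Col11a1 (chr3:114030479-114220756, 67 exons) had 1 and 0 counts in sham and 20 and 13 in post-PNX ECs. Sham ECs were at the floor of 3 counts per library, so the fold could only be bounded against that floor. The post-PNX mean of Col11a1 was 5.91-fold the floor, a value that leaves out the counting error of the post-PNX counts. No p is given for it, since it entered the test only through its post-PNX counts. The summed counts were 1 in sham (exact 95% Poisson interval 0.0253 to 5.57) and 33 in post-PNX ECs (22.7 to 46.3), intervals that cover counting error only. Even after PNX, Col11a1 stayed below 0.04 FPKM. Col2a1 encodes type II collagen, the main fibrillar collagen of cartilage. Col2a1 (chr15:97975602-98004724, 53 exons), which has 2 transcripts with the same counts in the tables, had 6 and 3 counts in sham and 4 and 3 in post-PNX ECs. The groups overlapped, and the summed counts of 9 (4.12 to 17.1) and 7 (2.81 to 14.4) were too few for a difference to be detectable at this depth.

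Col24a1 encodes type XXIV collagen, known from developing bone and cornea. Col24a1 (chr3:145292472-145552013, 60 exons) had 20 and 7 counts in sham against 609 and 557 in post-PNX ECs, which is 18.1 and 7.14 normalized counts in sham and 598 and 621 in post-PNX ECs. The groups were far apart, and the sham libraries differed more from each other than the post-PNX libraries on a relative scale. Col24a1 had the largest fitted rise among the members with counts above the floor, 46.6-fold (log2 fold change 5.54 with a standard error of 0.158). It stood at rank 19 of the 16208 genes by log2 fold change. As for Col11a1, no p is given for Col24a1, since it passed the filter only through its post-PNX counts. The size of this rise rests on few sham counts, 27 in sum (exact 95% Poisson interval 17.8 to 39.3) against 1166 (1100 to 1235) after PNX. With any library left out, the log2 fold change of Col24a1 lay between 5.06 and 6.39, the latter without the first sham library. Its level after PNX, 1.17 ± 0.0280 FPKM, was below that of Col27a1, and its upstream stretch is the last of those printed above.

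Col27a1 encodes type XXVII collagen, known from cartilage and other developing tissues. Col27a1 (chr4:63214009-63334991, 61 exons) had 1230.3 and 1194 normalized counts in sham and 1442 and 1545 in post-PNX ECs. The groups did not overlap, but the 1.23-fold difference (log2 fold change 0.30 with a standard error of 0.045, edgeR adjusted p = 5.3e-08) was far below the fold threshold. At any fold change, 29.3% of all genes tested were higher with an adjusted p under 0.01 and 27.8% were lower, and of the 10 members 9 were higher and none lower. Scaled to 10 fibroblast markers in place of TMM, the difference of Col27a1 turned to -0.45, so its direction depended on the scaling. Of the long fibrillar collagens, Col24a1 therefore rose from a trace level and Col27a1, which had been the higher by far in sham ECs, was close to its sham level. Annotated RefSeq genes overlap Col5a1 (Gm13372), Col2a1 (Gm46536), Col24a1 (Gm35133) and Col27a1 (Gm52743 and Mir455), and whether the counting used the strand is not given in the sources used here, so reads of these genes may include reads of the overlapping gene.

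The profiles most like those of Col1a1, Col1a2 and Col3a1 were sought among the 8110 other genes whose normalized counts averaged 1000 or more, by the Euclidean distance over the 4 libraries between log2 normalized counts centred on the sham mean. The nearest 5 were Fn1, which encodes fibronectin (distance 0.0215), Kif23, a motor protein of cell division (0.0523), Dcn, which encodes decorin (0.109), Gfpt2, an enzyme of hexosamine synthesis (0.114), and Ccl9, a chemokine (0.116). Their log2 fold changes were 2.22, 2.23, 2.30, 2.15 and 2.26. With 4 libraries in 2 groups, nearness means little more than a rise of the same size.

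The other genes of collagen biology are given by counts, with the group mean ± SD of normalized counts over 2 libraries for the genes named. Beside the median of 2.27 (log2 fold change) of the fibrillar collagens tested, 10 lists of other genes had medians between 0.21 and 1.62. Scaled to the fibroblast markers, which moved the median of all genes by -0.74, the median was 1.53 for Col1a1, Col1a2 and Col3a1 and stayed positive for FACIT collagens (0.08), beaded filament and short chain collagens (0.53), fibril-binding proteins (0.30) and collagenases (0.88), but turned negative for basement membrane collagens (-0.03), procollagen processing (-0.000694), modification and folding (-0.28), crosslinking (-0.21), receptors (-0.53) and regulators (-0.11). In none of the 10 lists did a gene fall past both thresholds by TMM.

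**Figure D4:**
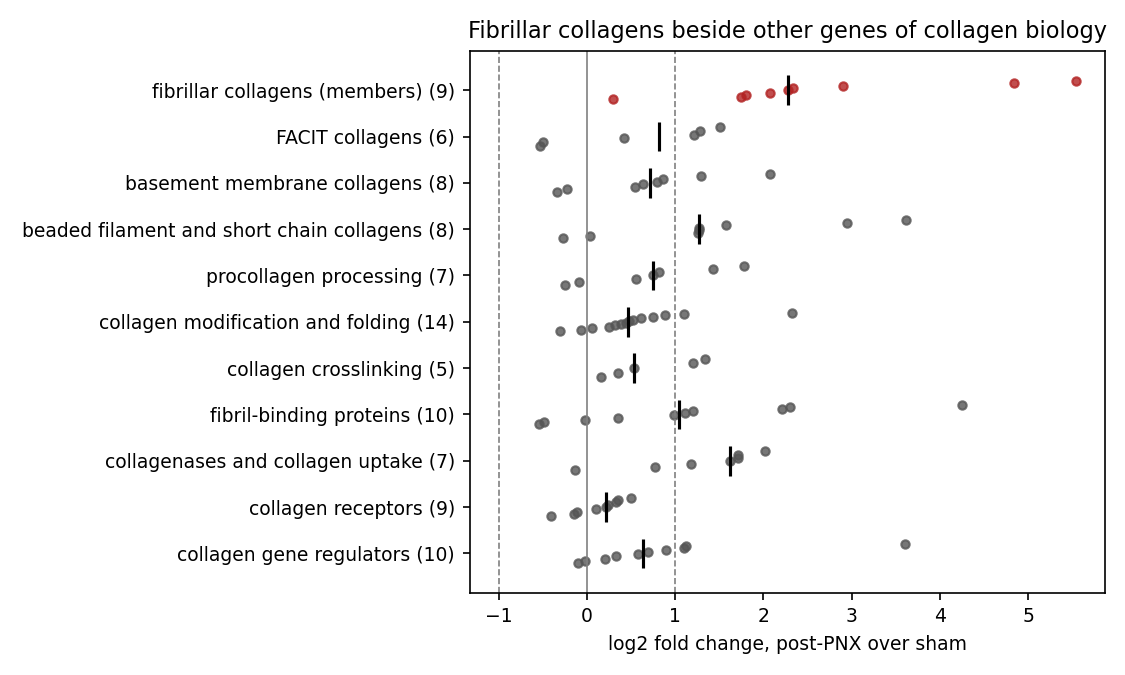
Log2 fold change of post-PNX over sham ECs for the fibrillar collagen genes (red) and for the tested genes of 10 lists of collagen biology (grey, with the number tested), where black lines are medians and dashed lines the thresholds of -1 and 1. The fibrillar collagens had a median of 2.27 and the other lists had medians between 0.21 and 1.62. Scaling to the fibroblast markers moved the median of all genes by -0.74. Under it the medians of basement membrane collagens, processing, modification, crosslinking, receptors and regulators turned negative.

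Among the other collagens, Col11a2, a further chain of type XI, had 244 and 215 normalized counts in sham and 192 and 189 in post-PNX ECs (log2 fold change -0.27, edgeR adjusted p = 0.024), a difference that did not pass. Of the FACIT collagens, which attach to the surface of fibrils, 3 of 6 tested (9 listed) rose, from Col14a1 (log2 fold change 1.51) and the abundant Col16a1 (1.29) down to Col9a3 (-0.53, not past the adjusted p). The third to rise was Col22a1 (11 and 15 counts in sham, 35 and 21 in post-PNX ECs, log2 fold change 1.22). Col22a1 reached the minimum of the filter in both libraries of a group only after PNX, so that the filter favoured a rise in it, and no p is given. Of the basement membrane collagens 2 of 8 rose, with Col15a1 the most (839 ± 2.05 to 3549.8 ± 109, log2 fold change 2.08) and Col4a3 the lowest (-0.34), and of the beaded filament and short chain collagens 6 of 8 tested (9 listed) rose, with Col6a5 the most (84.0 ± 24.0 to 1022 ± 15.4, 3.62), Col6a1 the most abundant (1.26) and Col8a2 the lowest (-0.27).

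Col4a1, a main chain of the vascular basement membrane, gave a reference for Col1a1 within the same libraries. It had 68450.1 and 69569 normalized counts in sham and 124448 and 127180.2 in post-PNX ECs (log2 fold change 0.87, edgeR adjusted p = 1.6e-49), short of the fold threshold. Per length, the ratio of Col1a1 to Col4a1, chosen after the values were seen, was 0.185 and 0.186 in sham and 0.517 and 0.511 in post-PNX ECs, a log2 difference of 1.47 with a pooled SD of 0.00830. Col1a1 RNA thus stayed below Col4a1 RNA per length in all 4 libraries, by a smaller factor after PNX.

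The genes that turn procollagen into fibrils were counted by step. Of 14 genes of modification and folding 2 rose, with P4ha3, a catalytic subunit of prolyl hydroxylase, the most (26.6 ± 7.28 to 135 ± 1.34, log2 fold change 2.32), P4hb, the shared subunit of that enzyme, the most abundant (0.52) and Colgalt2, which adds galactose to collagen, the lowest (-0.31). Of procollagen processing 2 of 7 tested (8 listed) rose, among them Adamts2, the main N-proteinase (1576 ± 39.1 to 5395 ± 3.20, log2 fold change 1.78), while Pcolce2, an enhancer of C-terminal cleavage, was the most abundant and the lowest (-0.24). Of the 5 lysyl oxidases, which crosslink collagen, Loxl2 (1.34) and the abundant Loxl1 (1.21) rose, and Lox was the lowest (0.16).

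Of the proteins that bind fibrils, 5 of 10 tested (11 listed) rose, with Lum, which encodes lumican, the most (58.2 ± 20.3 to 1129 ± 26.8, log2 fold change 4.26), Sparc, a collagen-binding glycoprotein, the most abundant (1.11) and Ogn, which encodes osteoglycin, the lowest (-0.54). Genes of collagen breakdown rose as well, 5 of 7 tested (8 listed), with the lysosomal protease Ctsk the most (1143 ± 11.9 to 4636 ± 16.2, log2 fold change 2.02), the gelatinase Mmp2 the most abundant (1.71) and Mmp9 the lowest (-0.14, not past the adjusted p). None of the 9 collagen receptors rose or fell past both thresholds, with Ddr1 at 0.50, Itgb1, the shared beta chain of the collagen-binding integrins, at 0.33 and Itga1 at -0.41. Of 10 regulators of collagen genes 3 rose, with the transcription factor Twist1 the most (7 and 2 counts in sham, 49 and 54 in post-PNX ECs, log2 fold change 3.60). Twist1 passed the filter on low counts only through its post-PNX counts, so that the filter favoured a rise in it, and no p is given. Ctgf, a matrix growth factor, was the most abundant (-0.02) and Runx2, a bone transcription factor, the lowest (-0.10), both not past the adjusted p.

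Markers of some other cell types, fibroblasts among them, were also higher after PNX. Of 10 fibroblast markers 8 were higher at an adjusted p under 0.01, 2 of them past the fold threshold, and Pdgfra was lower (log2 fold change -0.23), with summed normalized counts of 53670 and 53789 in sham and 102470 and 103859 in post-PNX ECs. Mfap4, a microfibril protein with the highest count and the largest change of the list, had a log2 fold change of 1.65, and none of the 10 was at 0 in any library. The part of fibroblast RNA in the rise of the collagen genes was not tested.

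Scaled to these markers, 8 of the collagen genes were higher after PNX. When the counts were scaled to the 10 fibroblast markers, a scaling chosen after the data were seen, 8 of the 10 members passed both thresholds, Col11a1 and Col24a1 included, against 2.74% of all genes tested. Their log2 fold changes then included 1.59 for Col1a1, 1.33 for Col1a2, 1.53 for Col3a1, 1.06 for Col5a1, 1.00 for Col5a2, 2.16 for Col5a3 and 4.80 for Col24a1. Col5a1 and Col5a2 stood close to the threshold of 1, and Col27a1 was below 0. Scaled to the 12 endothelial markers, which moved the median of all genes by 0.22, 8 of the 10 members again passed both thresholds, against 7.68% of all genes tested, and the median of those tested was 2.50.

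**Figure D5:**
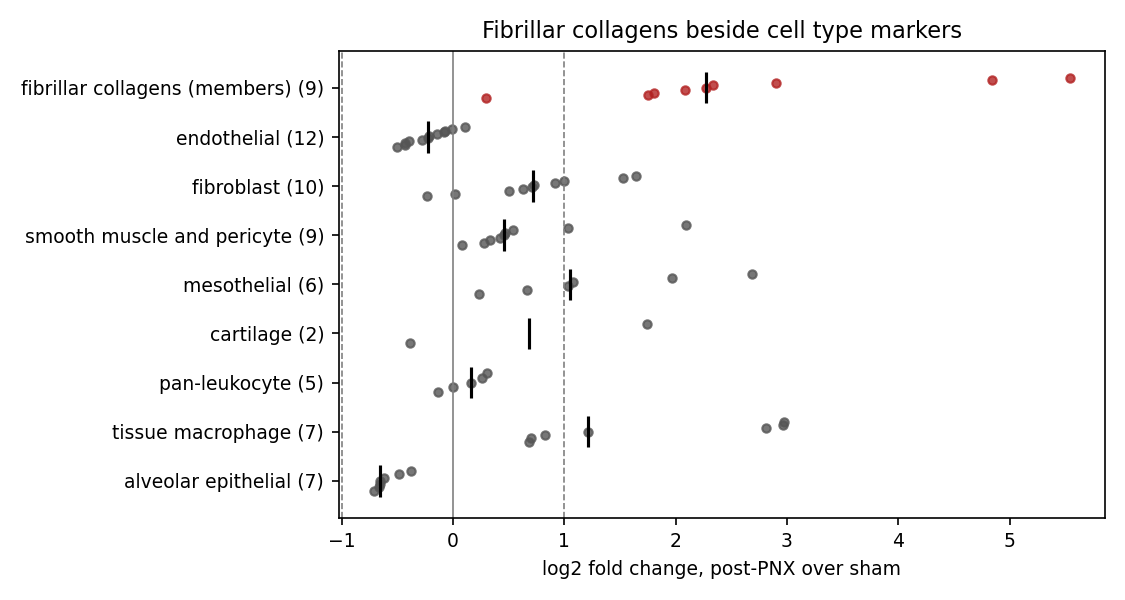
Log2 fold change of post-PNX over sham ECs for the fibrillar collagen genes (red) and for cell type markers (grey, with the number tested), where black lines are medians and dashed lines the thresholds of -1 and 1. Fibroblast, mesothelial and tissue macrophage markers had medians of 0.72, 1.06 and 1.22, below the 2.27 of the fibrillar collagens, while endothelial and alveolar epithelial markers had medians of -0.22 and -0.65; the fibroblast median was -0.03 and the endothelial median 0.00207 when scaled to themselves.

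Sums of other markers also differed between the groups. Smooth muscle and pericyte markers (8 of 9 higher at an adjusted p under 0.01, 2 past the fold threshold) summed to 24880 and 25154 normalized counts in sham and 33686 and 33498 in post-PNX ECs. Their median turned from 0.46 to -0.29 under scaling to the fibroblast markers, a scaling that moved the median of all genes by -0.74. Among the smooth muscle and pericyte markers, the pericyte gene Rgs5 changed most (log2 fold change 2.09) and the abundant Pdgfrb by 0.27. Mesothelial markers (6 of 6 higher, 4 past the fold threshold, Wt1 with 2.68 and the abundant Msln with 1.97) summed to 11529 and 11667 in sham and 23942 and 24355 in post-PNX ECs, and tissue macrophage markers (7 of 7 higher, 4 past the fold threshold, C1qb with 2.98 and the abundant Mrc1 with 0.70) to 22338 and 22005 in sham and 51715 and 51916 in post-PNX ECs. Pan-leukocyte markers (3 of 5 higher and 1 lower, Cd53 with 0.30 and the abundant Laptm5 with 0.16) had a median of 0.16, which turned to -0.59 under scaling to the fibroblast markers. Of the 7 cartilage markers 2 were tested and 1 of them rose, Hapln1 with a log2 fold change of 1.75, while Comp stood at -0.39 (edgeR adjusted p = 0.19). The 7 summed to 185 and 157 normalized counts in sham and 458 and 451 in post-PNX ECs. The other 5, among them the cartilage matrix genes Acan, Matn1 and Matn3, had at most 4 counts in any library, and the part of cartilage cells in the low counts of Col2a1 and Col11a1 was not tested.

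Endothelial and alveolar epithelial markers went the other way. Of 12 endothelial markers 10 were lower at an adjusted p under 0.01, none past the fold threshold, with sums of 530840 and 536865 in sham and 461661 and 464259 in post-PNX ECs, Cdh5 as the most abundant (log2 fold change -0.22) and Tek with the largest change (-0.50). All 7 alveolar epithelial markers were lower, none past the fold threshold, with Sftpa1 at -0.71 and the abundant Sftpc at -0.62. Their summed normalized counts were 338998 and 340768 in sham and 221767 and 221470 in post-PNX ECs. The part of these cell types in the collagen values was not tested.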

How the data were processed

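RNA was sequenced from CD31-selected lung ECs of 2 post-PNX and 2 sham libraries with a stranded mRNA kit, as paired ends. Per the labels, reads were aligned to mm10, and the submitters' processing notes name STAR. The counting program is not given in the sources used here. For each library the authors deposited counts on 33068 RefSeq transcripts, without normalization. FPKM and TPM values, which the authors deposited beside the counts, are scaled to transcript length and to the total over all transcripts.

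The transcript with the most counts was taken for each of the 24063 symbols. The analysis in edgeR 4.0.16 (R 4.3.3) used filterByExpr (16208 genes kept), TMM factors between 0.9985 and 1.0026, and the quasi-likelihood test on all 4 libraries without covariates, with Benjamini-Hochberg adjustment over all genes tested. A gene was said to have risen or fallen when its adjusted p was under 0.01 and its log2 fold change beyond 1, as in the study. The standard error is the log2 fold change divided by the square root of F. TMM-normalized counts are expressed at the mean library size, and 0.125 was added as prior count for log2 profiles. A gene with no library of a group above 3 counts was treated as at the floor there, and its fold was bounded against 3 counts per library. Ratios used FPKM. The steps were tested on simulated counts.

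The members and lists were chosen with earlier results of these data known. Named genes are the 10 members, the most abundant, most raised and most lowered tested gene of each pathway list, the most abundant and most changed gene of each marker list, and the 5 nearest profiles. Col4a1 in its ratio, Col22a1, Pdgfra, Acan, Matn1, Matn3, Comp and the overlapping genes were named with their values known. Of the listed symbols 6 were matched through an older name (the tables' name is printed), and Muc16 was not matched.

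Also tried were library size alone, the size factors and the Wald test of DESeq2 1.42.0, scaling to 12 endothelial markers, no filter, a mean of at least 50 counts, glmTreat, the replicate number as a block, sums over transcripts, an adjusted p under 0.05, no fold threshold, TPM in place of FPKM and each library left out. Scaling to 10 fibroblast markers was added after the data were seen.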

Additional observations from a re-analysis of the deposited data

How the results depend on the processing

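With 2 pools of 2 mice per group and 1 time point, the size of the collagen rise is known for these cell fractions only. Over all alternatives the log2 fold changes of Col1a1, Col1a2, Col3a1, Col5a1, Col5a2, Col5a3, Col11a1 and Col24a1 stayed positive, while that of Col27a1 turned to -0.45 under scaling to the fibroblast markers. The size of the adjusted p-values depended strongly on the fit. For Col1a1 the edgeR adjusted p was 3.1e-68 by TMM and 8.8e-20 with sums over transcripts. For Col27a1 the adjusted p was 5.3e-08 by edgeR and 1.0e-04 by the DESeq2 Wald test. Of the 10 members, 8 passed both thresholds under each alternative except a mean of at least 50 counts and the fit without PNX replicate 1 (7 each, Col11a1 was then not tested), the DESeq2 Wald test (7, Col11a1 had no adjusted p) and no fold threshold (9). Over the fits without each library in turn, the number of members ranged from 7 to 8, their median from 2.19 to 2.28, the genes higher from 893 to 928 and the genes lower from 225 to 268. The median of the members tested was 2.50 when scaled to endothelial markers, 1.53 to fibroblast markers, 2.18 without the filter and 2.18 with a mean of at least 50 counts, where Col2a1 was then included and Col11a1 left out, respectively. The genes higher numbered 957 by TMM, 444 when scaled to fibroblast markers, 604 by glmTreat and 4745 without a fold threshold, and the genes lower numbered 269, 3404, 39 and 4513, with 97 when scaled to endothelial markers and 160 with a mean of at least 50 counts. With the replicate block 957 genes were higher and 272 lower, with 8 members and a median of 2.27. The replicate numbers did not pair the libraries, since differences between replicates of the 2 groups correlated at 0.03 across genes and the mice were different, and this fit is given for completeness.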
